A study of Mus musculus with 6 samples.

Results

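Transcript levels of 10 receptor genes that modulate fear memory were followed in the mouse lateral amygdala. The genes were listed by symbol: the serotonin receptors Htr1a, Htr2a and Htr2c, the adrenergic receptors Adra1a, Adra2a and Adrb1, the muscarinic receptors Chrm1 and Chrm3, the cannabinoid receptor Cnr1 and the corticotropin-releasing hormone (CRH) receptor Crhr1. All 10 had 1 entry each among the 50379 gene IDs with a value, and all 10 were among the 14663 genes that passed the filter on low values. RNA came from male mice of a 129xC57BL/6 hybrid strain aged 2 to 3 months, in 3 groups of 2 libraries. One group was the control, another received scrambled siRNA, an interfering RNA of shuffled sequence, and the last received Baf53b siRNA, which targets Actl6b, the gene of a BAF chromatin remodelling subunit found in neurons, and was injected 1 day after fear training. What the control mice received, and when the scrambled siRNA was given, is not stated in the labels. The protocol speaks of tissue from 4 mice without saying whether a library is a pool, so the p-values measure the spread between these libraries.

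These receptors sit in the cell membrane and signal through heterotrimeric G proteins. Htr2a, Htr2c, Adra1a, Chrm1 and Chrm3 couple mainly to Gq, which activates phospholipase C. Htr1a, Adra2a and Cnr1 couple to Gi/o and dampen adenylyl cyclase, while Adrb1 and Crhr1 couple to Gs and raise cyclic AMP. In the amygdala, noradrenaline, serotonin, acetylcholine, CRH and endocannabinoids adjust neuronal excitability and the storage of fear memories.

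Levels were deposited as FPKM, a fragment count divided by transcript length and library depth, each with a confidence interval. The widths of the intervals implied 6370455 to 10562028 fragments behind the genes at 1 FPKM or more in each library. Mitochondrially encoded genes took 15.0% to 19.4% of the FPKM sum in the replicate 1 libraries and 22.8% to 29.5% in the replicate 2 libraries. The targeted Actl6b stood at 42.9 and 44.1 FPKM (control), 43.8 and 43.9 FPKM (scrambled siRNA) and 42.8 and 39.6 FPKM (Baf53b siRNA). Its log2 difference from scrambled siRNA was -0.09 (SE 0.12, limma adjusted p = 1), so the directions below refer to the libraries as labelled. The excitatory neuron marker Slc17a7 (288 to 410 FPKM) and the inhibitory marker Gad1 (88.5 to 101 FPKM) were abundant in every library. Summed over 8 microglia markers, the level was 295 and 293 FPKM (control), 497 and 498 FPKM (scrambled siRNA) and 895 and 743 FPKM (Baf53b siRNA).

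The receptors spanned a wide range of abundance. FPKM is scaled by transcript length, so levels can be compared between genes as far as the annotated lengths are right. The deposited positions of Adrb1, Htr2a and Adra1a end earlier than in the GENCODE M21 annotation, so their levels may depend on the annotation used. Chrm1, which encodes the main muscarinic receptor of forebrain projection neurons, was the most abundant, at 54.4 ± 7.29 FPKM (SD, n = 6 libraries), above 90.2% of the genes tested. Htr2c followed at 37.2 ± 3.33 FPKM and Cnr1 at 28.3 ± 2.34 FPKM. These 3 genes stood apart from each other and from the rest in all 6 libraries. Cnr1 was between 4.70 and 5.66 times as high as the next gene, Adrb1, at 5.68 ± 0.507 FPKM. Adra2a (3.60 ± 0.319 FPKM), Htr2a (3.50 ± 0.418 FPKM) and Crhr1 (3.13 ± 0.860 FPKM) had overlapping ranges and could not be ordered beyond their spread, and the range of Crhr1 also overlapped that of Chrm3 (2.52 ± 0.490 FPKM). Adra1a (1.80 ± 0.130 FPKM) and Htr1a (1.16 ± 0.189 FPKM) were lowest, each below its upper neighbour in all 6 libraries.

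**Figure D1:**
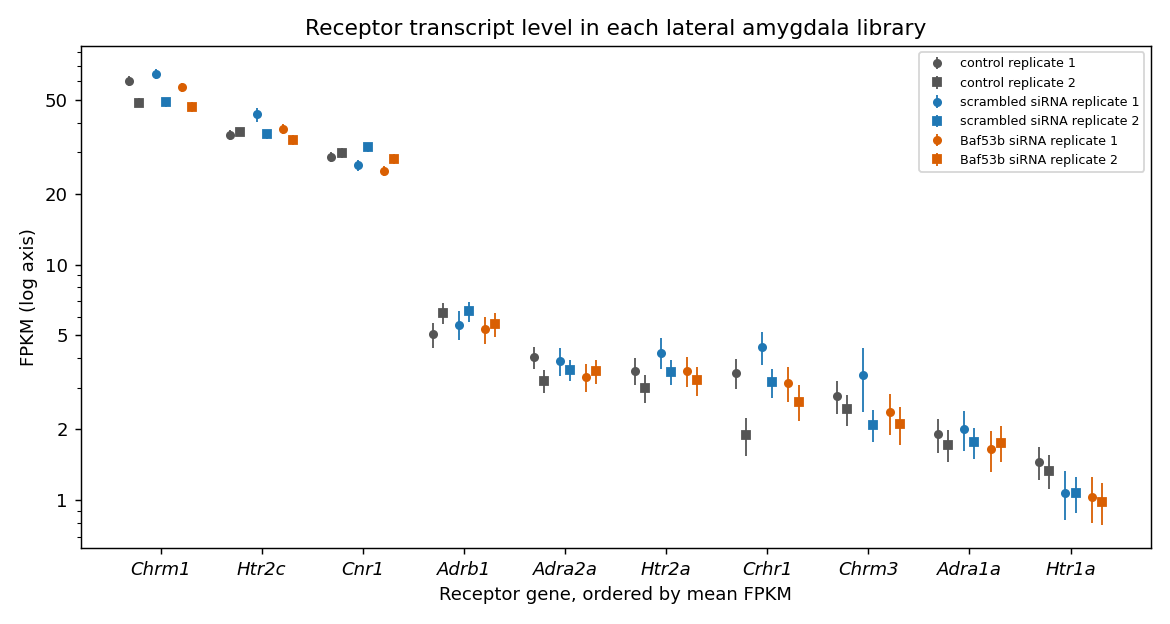
FPKM of each receptor gene (log axis) in the 6 libraries, coloured by group, with circles for replicate 1 and squares for replicate 2. Bars are the deposited confidence intervals. Chrm1, Htr2c and Cnr1 lie at 24.96 FPKM or more in every library, and the other 7 genes at 6.33 FPKM or less.

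Set among 38 receptors for serotonin, adrenergic ligands, acetylcholine (muscarinic), dopamine, cannabinoids and CRH-family peptides, Chrm1, Htr2c and Cnr1 were the 3 most abundant. Chrm4, a Gi-coupled muscarinic receptor, came next at 10.4 ± 2.55 FPKM (SD, n = 6) and the dopamine receptor Drd1 at 6.23 ± 0.767 FPKM. Of the 38 receptors, 24 had a mean of at least 1 FPKM. Drd2 was at 0.158 to 0.414 FPKM and Cnr2, the cannabinoid receptor of immune cells, at 0.0731 to 0.419 FPKM. Htr2c and Chrm1 led the serotonin and muscarinic receptors in every library. Among adrenergic receptors Adrb1 led in 5 libraries, and Adra1b (5.79 FPKM) lay above Adrb1 (5.55 FPKM) in scrambled siRNA replicate 1. Htr2c was 10.03 to 12.3 times as high as Htr2a, and Chrm1 was 19.1 to 24.0 times as high as Chrm3.

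No receptor passed the test in any comparison. With limma across all genes, 0 of 10 were called in Baf53b siRNA against scrambled siRNA, where 0.123% of all tested genes were called, 0 of 10 against control, where 1.23% were called, and 0 of 10 in scrambled siRNA against control, where 0% were called. At an unadjusted p under 0.05 the count of receptors was also 0 in each, beside 3.03%, 5.02% and 2.22% of all genes. The limma adjusted p of each receptor was 1 in all 3 comparisons. In bulk tissue a lower FPKM could come from fewer cells of a type, from less RNA per cell or from a larger share of other RNA. These cannot be told apart.

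All 10 receptors had a lower estimate in Baf53b siRNA than in scrambled siRNA, where 49% of all tested genes did. Their median log2 difference was -0.12, against 0.003 over all genes. In 6 of the 10 the libraries of both groups overlapped. Set side by side by replicate number, a count made after the values were seen, 9 of 10 (all but Chrm3) were lower in both replicates, as were 26% of all tested genes. In Htr1a, Adra1a, Adra2a and Crhr1 both Baf53b siRNA libraries lay below both scrambled siRNA libraries, an order seen in 9% of all genes. The count below 0 was 8 of 10 without scrambled siRNA replicate 1, the library in which 6 of the receptors were highest, and the median was then -0.04, against 0.07 over all genes. Markers of pan-neuronal identity (median -0.07, 5 of 5 below 0) and of excitatory neurons (-0.11, 6 of 7 below 0) had medians of similar size in this comparison, and none of them passed the test. This was not particular to neuron lists, since oligodendrocyte markers had such a median too (-0.09, 4 of 6 below 0). So did choroid plexus and ependyma markers (-0.13, 2 of 3), of which only 3 were tested. The thalamus list (-0.09, 4 of 6) shares Slc17a6 with the excitatory neuron list and so is not separate from it. None of these markers was called. Inhibitory neuron markers had a median of -0.05 (7 of 8 below 0). Microglia markers went the other way (median 0.49, 8 of 8 above 0, none called). Astrocyte markers were mixed (median 0.18, 4 of 7 above 0 and 3 below), and 1 of them was called, the filament gene Gfap, which rose from 46.2 to 174 FPKM (log2 difference 1.89, limma adjusted p = 0.0110). The part of these cell types in the receptor values was not tested.

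Against control, 8 of 10 receptors were lower in Baf53b siRNA (39.3% of all genes were), with a median of -0.06 beside 0.04 for all genes. The number lower was 9 after rescaling without mitochondrial genes and 10 after quantile normalization. Their medians were then -0.14 and -0.15, beside -0.035 for all genes under each. The number lower was 6 without control replicate 1 and 6 without Baf53b siRNA replicate 2. Both Baf53b siRNA libraries lay below both control libraries in Htr1a, Chrm3 and Cnr1, an order found in 7.11% of all genes. In scrambled siRNA against control, 2 of 10 were lower (36.4% of all genes) and the median was 0.04, as for all genes. Of the receptors, only Htr1a had both scrambled siRNA libraries below both control libraries, an order found in 5.57% of all genes. This split depended on scaling: the number lower was 4, 6 and 5 after median ratio scaling, after rescaling without mitochondrial genes and after quantile normalization, and 6 without scrambled siRNA replicate 1 and 5 without control replicate 2. The 3 comparisons share groups, so their values are not independent of each other.

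**Figure D2:**
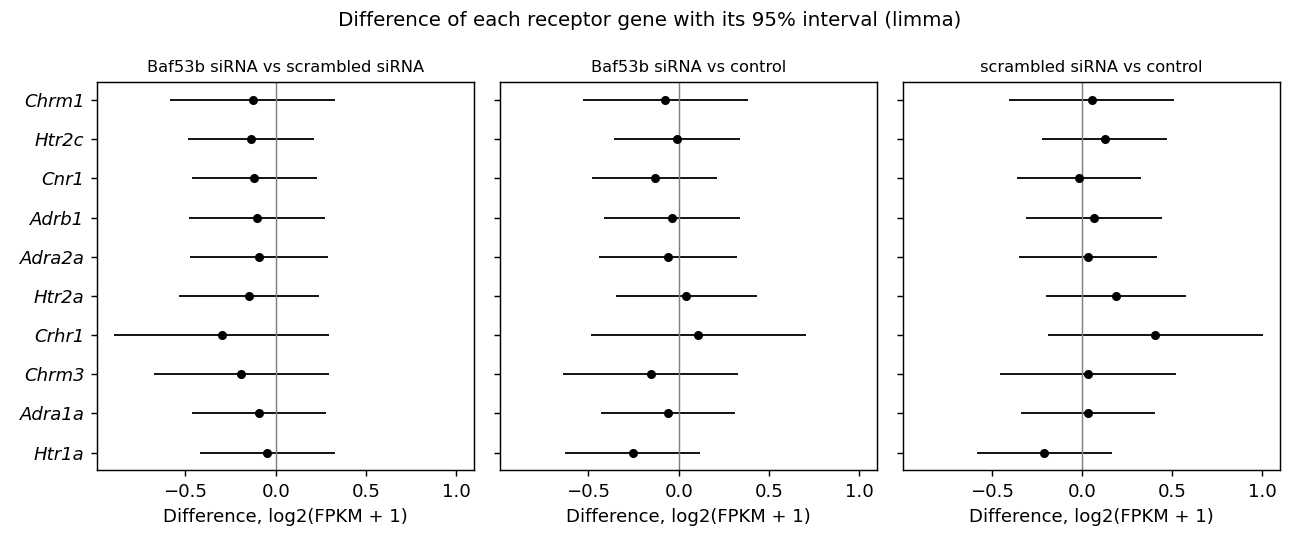
Difference of each receptor gene on the log2(FPKM + 1) scale with its 95% interval from limma, in the 3 comparisons. Every interval includes 0, and that of Crhr1 is the widest of the 10 in each panel.

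Htr1a, a Gi/o-coupled serotonin receptor found on the cell body and dendrites of neurons and as an autoreceptor on serotonin neurons, stood at 1.45 and 1.34 FPKM (control), 1.07 and 1.07 FPKM (scrambled siRNA) and 1.03 and 0.983 FPKM (Baf53b siRNA). All 4 siRNA libraries thus lay below both control libraries, which held for 1.89% of all tested genes and for no other of the 10 receptors. This order was singled out after the values were seen. The log2 difference from control was -0.25 (SE 0.16, 95% interval -0.63 to 0.12, limma adjusted p = 1) for Baf53b siRNA and -0.21 (SE 0.16, adjusted p = 1 in limma) for scrambled siRNA. On this scale a pseudocount of 1 nearly equals the level itself and so understates the change. In FPKM the means were 27.8% and 23.1% below control. Only 71.5 to 153 fragments lay behind each value by the width of its interval, a counting error of 8.08% to 11.8%, and the deposited interval of each scrambled siRNA library (0.820 to 1.33 and 0.882 to 1.25 FPKM) overlapped those of both control libraries (1.21 to 1.69 and 1.12 to 1.55 FPKM). The interval of Baf53b siRNA replicate 1 (0.803 to 1.25 FPKM) overlapped both as well, while that of replicate 2 (0.781 to 1.18 FPKM) lay below that of control replicate 1.

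Htr2a and Htr2c are Gq-coupled serotonin receptors of neurons. Htr2a was at 3.54 and 2.98 FPKM (control), 4.23 and 3.50 FPKM (scrambled siRNA) and 3.53 and 3.23 FPKM (Baf53b siRNA), so its groups overlapped in all 3 comparisons. The log2 difference between the siRNA groups was -0.15 (SE 0.16, limma adjusted p = 1). Htr2c was at 35.5 and 36.6 FPKM (control), 43.4 and 35.8 FPKM (scrambled siRNA) and 37.7 and 33.9 FPKM (Baf53b siRNA). Its groups overlapped as well, with 1 high value in scrambled siRNA replicate 1. By the width of its interval that value had an estimated 836 fragments, against 1648 to 2257 in the other libraries. What widened the interval was not tested. The log2 difference between the siRNA groups was -0.14 (SE 0.15, 95% interval -0.48 to 0.21), which on the FPKM + 1 scale allows at most a fall of 28.5% or a rise of 15.7%. Without scrambled siRNA replicate 1 the difference was -0.001. Htr2c is also strongly expressed by the choroid plexus, and the choroid plexus marker Ttr was at 8.87 FPKM in scrambled siRNA replicate 1 against 0.884 to 2.73 FPKM in the other 5 libraries. The other choroid plexus markers listed were below 1 FPKM in every library. In scrambled siRNA replicate 1 Folr1 was at 0.396 FPKM (0.0669 to 0.863 over all 6 libraries) and Kl at 0.275 FPKM (0.161 to 0.278). Clic6 was at 0.543 FPKM there (0.480 to 0.726) and Prlr at 0.137 FPKM (0.106 to 0.252). Kcnj13 (0 to 0.187) and Otx2 (0 to 0.0981) were at 0 FPKM there, and Otx2 was above 0 only in control replicate 2. The part of choroid plexus RNA in the Htr2c value was not tested.

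Among the adrenergic receptors, Adrb1, the Gs-coupled beta receptor of neurons and heart, was at 5.05 and 6.24 FPKM (control), 5.55 and 6.33 FPKM (scrambled siRNA) and 5.32 and 5.57 FPKM (Baf53b siRNA). Its values overlapped between all groups, and the log2 difference between the siRNA groups was -0.10 (SE 0.16). Adra2a, a Gi/o-coupled receptor that also acts as an autoreceptor on noradrenaline terminals, was at 4.04 and 3.22 FPKM (control), 3.90 and 3.57 FPKM (scrambled siRNA) and 3.33 and 3.53 FPKM (Baf53b siRNA). Both Baf53b siRNA values were below both scrambled siRNA values and between the 2 control values (log2 difference from scrambled siRNA -0.09, SE 0.16). Adra1a, a Gq-coupled receptor, was the steadiest of the 10 over the 6 libraries, with a coefficient of variation of 7.22% against a median of 13.2% for all tested genes. It ran from 1.65 FPKM in Baf53b siRNA replicate 1 to 2.00 FPKM in scrambled siRNA replicate 1, and its log2 difference between the siRNA groups was -0.09 (SE 0.16). Adra2a was 1.87 to 2.12 times as high as Adra1a in every library.

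Of the muscarinic pair, Chrm1 varied mainly between libraries of the same group. Chrm1 was at 60.3 and 48.7 FPKM (control), 64.7 and 49.0 FPKM (scrambled siRNA) and 56.5 and 46.8 FPKM (Baf53b siRNA). In each group the first library was higher than the second by more than the deposited intervals, while the group means of 54.5, 56.9 and 51.7 FPKM were close. The log2 difference between the siRNA groups was -0.13 (SE 0.19, 95% interval -0.59 to 0.33), and its sign turned without scrambled siRNA replicate 1 (0.07) or without Baf53b siRNA replicate 2 (0.005). An annotated short noncoding gene, Gm22820, lies on the opposite strand within a Chrm1 exon over 329 bases. It was given 9.22 to 19.4 FPKM, and since strand use in counting is not stated, reads of the overlap cannot be told apart.

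Chrm3, whose product acts in neurons, glands and smooth muscle, was at 2.76 and 2.43 FPKM (control), 3.38 and 2.09 FPKM (scrambled siRNA) and 2.36 and 2.0996 FPKM (Baf53b siRNA). The Baf53b siRNA libraries lay below both control libraries and inside the range of scrambled siRNA. Its log2 difference was -0.16 from control and -0.19 from scrambled siRNA (SE 0.21 for each), and the latter was 0.06 without scrambled siRNA replicate 1. The interval in that library, 2.36 to 4.40 FPKM, gave an estimate of 43.7 fragments, the fewest of any value here. Control replicate 1 had an estimated 161 fragments at 2.76 FPKM. This gap was larger than that in depth, 6370455 fragments in scrambled siRNA replicate 1 against 8843031 in control replicate 1. The interval may thus hold more than counting error, and what widened it was not tested.

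Cnr1 encodes the presynaptic receptor through which endocannabinoids reduce transmitter release, and in the amygdala it is richest in cholecystokinin interneurons. It was at 28.6 and 29.8 FPKM (control), 26.4 and 31.5 FPKM (scrambled siRNA) and 24.96 and 28.2 FPKM (Baf53b siRNA). Both Baf53b siRNA libraries were below both control libraries, with a log2 difference of -0.13 (SE 0.15, 95% interval -0.48 to 0.21, limma adjusted p = 1). The interval of this difference allows at most a fall of 28.2% or a rise of 15.7% on the FPKM + 1 scale. Against scrambled siRNA the groups overlapped (-0.12, SE 0.15), and the sign turned without scrambled siRNA replicate 2 (0.004). Of 5 tested markers of cholecystokinin interneurons, a list that holds Cnr1 itself, 3 were below 0 and 2 above 0 in each of these comparisons, and none was called. Their part in the Cnr1 values was not tested.

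Crhr1, the Gs-coupled receptor for the stress peptide CRH, varied most. It was at 3.48 and 1.89 FPKM (control), 4.46 and 3.16 FPKM (scrambled siRNA) and 3.15 and 2.62 FPKM (Baf53b siRNA). Its coefficient of variation was 27.5%, and the highest library was 2.36 times the lowest. Both Baf53b siRNA libraries were below both scrambled siRNA libraries, with a log2 difference of -0.30 (SE 0.25, 95% interval -0.89 to 0.30, limma adjusted p = 1), while both lay between the 2 control values. The difference from control was 0.11 (SE 0.25) and was -0.21 without control replicate 2 and 0.42 without control replicate 1. In scrambled siRNA against control it was 0.41 (SE 0.25, interval -0.19 to 1.00), with overlapping libraries.

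The spread within groups was shared by several receptors. In 5 of 10 (Chrm1, Crhr1, Htr2a, Chrm3 and Htr1a) the replicate 1 library exceeded the replicate 2 library in all 3 groups, as 37.1% of all tested genes did. In Cnr1 and Adrb1 the replicate 2 library was higher in all 3 groups, as in 11.4% of all genes. Mitochondrial RNA took the larger share in the replicate 2 libraries, which lowers the FPKM of other genes. After rescaling without mitochondrial genes the direction remained in all 3 groups for Chrm1, Crhr1, Htr2a, Chrm3, Cnr1 and Adrb1, but not for Htr1a. The shares of all genes were then 23.7% lower and 21.2% higher in replicate 2 in all 3 groups. The labels do not say what a replicate number stands for. The deposited intervals of the 2 libraries did not overlap for Adra2a, Chrm1 and Crhr1 in control, for Htr2c, Chrm1, Cnr1 and Crhr1 in scrambled siRNA and for Htr2c, Chrm1 and Cnr1 in Baf53b siRNA. Among all genes this held for 33.4%, 27.6% and 23.3% in the same groups, so at this depth library differences exceeded counting error for many genes.

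**Figure D3:**
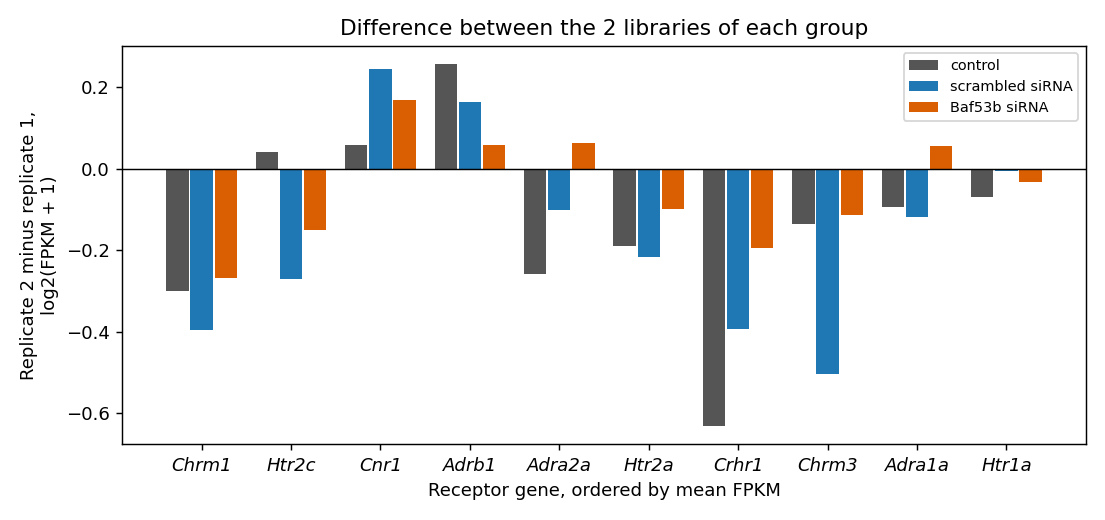
Replicate 2 minus replicate 1 on the log2(FPKM + 1) scale for each receptor gene in each group (bars from 0). Bars of Chrm1 and Crhr1 point down in all 3 groups, to -0.40 and -0.63 at most, and those of Cnr1 and Adrb1 point up.

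Over the 6 libraries Htr2a and Crhr1 moved most closely together of all pairs of receptors (Pearson r = 0.97 on log2(FPKM + 1)), both highest in scrambled siRNA replicate 1 and lowest in control replicate 2. Chrm1 and Chrm3 followed each other at r = 0.89 and Adra1a and Adra2a at r = 0.88. Cnr1 ran against Chrm1 (r = -0.58). All genes of a library carry that library's depth and mitochondrial share, which differed between libraries, so these values only describe 6 points. Such likeness was common for some receptors: 1310 of 12128 named genes had an r above 0.9 with Chrm1, 382 with Crhr1 and 342 with Htr2a, against 19 with Htr1a and 44 with Cnr1. The 3 genes most like Chrm1 were Mta3, Ppp1r13b and Cep170b (r of 1.00 each), those most like Htr2a were Tfap2d (1.00), Ptprr (0.99) and Spryd4 (0.99), and those most like Crhr1 were Uggt1 (1.00), Insig2 (0.99) and Mtg1 (0.99). For Htr2c they were Slc36a1 (1.00), Sorl1 (0.99) and Ndrg2 (0.99), and for Cnr1 they were Nap1l3 (0.99), Fra10ac1 (0.99) and Opcml (0.99). Chrm3 was most like Hbb-bt (1.00), Coq8a (0.99) and Sp140 (0.99), and Htr1a like Rragb (0.98), Fut8 (0.94) and Wdr82 (0.94). Adrb1 was closest to Yme1l1 (0.99), Cabyr (0.98) and Chm (0.98), Adra1a to Fosl1, Hddc3 and Jag1 (0.99 each), and Adra2a to Zfp623 (0.99), Rab26 (0.98) and Crat (0.98).

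The bases before the start sites of Htr2a and Crhr1 are shown because these 2 genes had the most similar values over the libraries. They come from the RefSeq table for GRCm38.p6, the same assembly as mm10, run 5′ to 3′ on the plus strand, and have the CG dinucleotides in capitals. The Htr2a window is chr14:74640624-74640839 and the Crhr1 window is chr11:104132531-104132780.
Htr2a: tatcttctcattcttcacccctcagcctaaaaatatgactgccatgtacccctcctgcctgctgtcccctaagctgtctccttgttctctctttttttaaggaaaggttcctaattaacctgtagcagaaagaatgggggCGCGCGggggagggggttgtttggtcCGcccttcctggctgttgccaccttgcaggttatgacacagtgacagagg
Crhr1: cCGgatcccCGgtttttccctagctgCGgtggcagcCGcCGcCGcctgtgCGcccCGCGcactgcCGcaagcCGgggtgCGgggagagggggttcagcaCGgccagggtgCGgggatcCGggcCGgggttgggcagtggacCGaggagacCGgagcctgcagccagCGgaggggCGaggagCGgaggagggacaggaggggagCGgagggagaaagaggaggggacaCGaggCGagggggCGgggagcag
The Htr2a stretch of 216 bases held 4 CG dinucleotides and the Crhr1 stretch of 250 bases held 25 within the printed bases. The median over 32851 mouse promoter windows of 250 bases was 6. Of the 8 receptors with an entry, Adra2a (22), Adrb1 (24) and Crhr1 were CG-rich, Htr1a (6), Htr2c (5) and Htr2a were near or below the median, Chrm3 held 10, and the 3 listed starts of Cnr1 held 36, 28 and 5. The cyclic AMP response element TGACGTCA was in none of them (1.55% of all windows, both strands searched). The shorter core TGACG, which the full element contains, was in those of Adra2a and Adrb1 (17.8% of all windows).

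The genes differ in structure as well. In mm10 coordinates of the deposited tables, Chrm1 (chromosome 19, 8663789 to 8683587), Adra2a (54045182 to 54048982) and Adrb1 (56722372 to 56724862) lie on the plus strand of the same chromosome. Htr1a (chromosome 13, 105443693 to 105448133, plus strand) and Chrm3 (chromosome 13, 9875486 to 10360844, minus strand) share another. Htr2c (chromosome X, 146962513 to 147197277), Cnr1 (chromosome 4, 33924593 to 33948831), Crhr1 (chromosome 11, 104132855 to 104175523), Htr2a (chromosome 14, 74640840 to 74706859) and Adra1a (chromosome 14, 66635251 to 66733462) lie on the plus strand. All 10 are annotated as protein-coding. In GENCODE M21 the reading frames of Htr1a, Adra2a, Adrb1, Chrm1, Chrm3 and Cnr1 each lie in 1 exon, while the longest coding transcript of Crhr1 has 13 coding exons. Levels did not follow this feature, since both Chrm1 and Htr1a, the highest and lowest of the 10, have a reading frame in 1 exon.

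The wider pathway showed no called gene. Of 108 genes in 13 lists of related receptors, ligand enzymes and signalling partners, 106 were in the tables and 75 were tested. In Baf53b siRNA against control 0 were called and 3 had an unadjusted p under 0.05 (limma, 1.23% and 5.02% of all tested genes). In that comparison 42 were below 0 (39.3% of all). In scrambled siRNA against control 0 were called, 25 were below 0 (36.4% of all) and 50 above 0. In Baf53b siRNA against scrambled siRNA 0 were called and 0 had an unadjusted p under 0.05 (limma, 0.123% and 3.03% of all). Here 49 were below 0 (49% of all) and 26 above 0. Among related serotonin receptors 0 of 5 were called (4 below 0, median -0.25), with Htr7 (a mean of 3.76 FPKM with scrambled siRNA and 2.90 FPKM with Baf53b siRNA, log2 difference -0.29), Htr1f (-0.26) and Htr3a (-0.25) differing most. Among 5 tested adrenergic receptors (median -0.02), Adra1b differed by -0.25 and Adra1d by -0.20. The tested genes of the related muscarinic, dopamine, and cannabinoid and CRH lists were Chrm4 (-0.06), Chrm2 (0.01), Drd1 (0.13), Crhr2 (0.24) and the Cnr1-binding protein Cnrip1 (-0.06).

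Ligand-side genes were mostly low or steady in this tissue. Tph2, Slc6a4, Dbh and Chat, which mark serotonin, noradrenaline and acetylcholine neurons, were all at 0.188 FPKM or less in every library. Those neurons lie outside the amygdala and send axons to it. Of 5 tested genes of monoamine transport and breakdown the median was 0.05, with Slc29a4 (0.16), Maoa (0.10) and Maob (-0.09) differing most, and acetylcholinesterase Ache differed by -0.13. The 8 endocannabinoid enzymes had a median of -0.004, with Napepld (0.11), Dagla (-0.09) and Abhd6 (-0.06) furthest from 0. Crh was at 1.58 and 1.71 FPKM (control), 1.27 and 1.22 FPKM (scrambled siRNA) and 0.728 and 1.19 FPKM (Baf53b siRNA). All 4 siRNA libraries lay below control, but neither the difference from scrambled siRNA (-0.21) nor that from control (-0.44, limma adjusted p = 0.943) passed. Its binding protein Crhbp differed by -0.07 from scrambled siRNA.

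Signalling genes downstream were also without a call. All 12 tested Gs-arm genes were below 0 against scrambled siRNA (median -0.10), where 49% of all tested genes were. In only 1 of the 12 did both Baf53b siRNA libraries lie below both scrambled siRNA libraries, as in 9% of all genes. Their summed level was 980 and 795 FPKM (scrambled siRNA replicates 1 and 2) and 872 and 734 FPKM (Baf53b siRNA). Scrambled siRNA replicate 1 was thus the highest library. The adenylyl cyclases Adcy2 (-0.23), Adcy8 (-0.21) and Adcy1 (-0.17) differed most. Against control 8 of the 12 were below 0 (median -0.04, 39.3% of all genes). In scrambled siRNA against control 9 of the 12 were above 0 (median 0.10), so the lower values were seen mainly beside the scrambled siRNA group. Of 14 tested Gq-arm genes 10 were below 0 (median -0.09). The phospholipases Plcb2 (0.39) and Plcb3 (0.31) and the calcium release channel Itpr1 (-0.22) differed most. Plcb2, which is prominent in blood-derived cells, was 0.69 above control but did not pass (limma unadjusted p = 0.00851, adjusted p = 0.319). Microglia and leukocyte markers were higher in the same libraries, and their part in the Plcb2 value was not tested. Among 11 Gi/o-arm genes (median 0.02) these were Rgs4 (-0.32), Gnai2 (0.17) and Gnai3 (0.16), and among 7 receptor kinases and arrestins (median -0.03) they were Grk4 (0.28), Grk5 (-0.25) and Arrb2 (0.16).

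**Figure D4:**
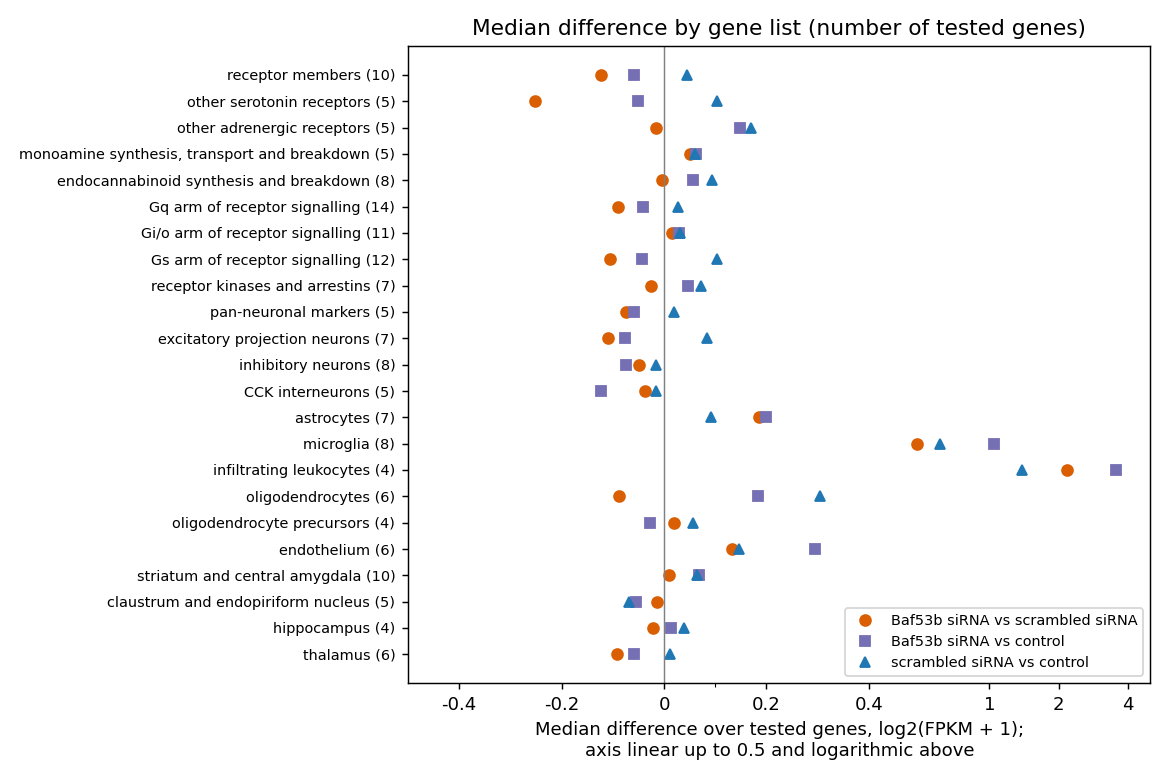
Median log2(FPKM + 1) difference of each gene list with at least 4 tested genes (number in brackets) in the 3 comparisons, on an axis linear to 0.5 and logarithmic above. The receptors ("receptor members") lie at -0.12, -0.06 and 0.04, near the neuron lists and some other lists, while microglia and leukocyte markers lie at 0.49 or above.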

How the data were processed

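Stranded messenger RNA libraries were made from 1 ug of total RNA and sequenced as read pairs, per the labels' protocols. The tools were TopHat2 2.1.1, Cufflinks 2.2.1 and bcl2fastq 2.19.1.403 with build mm10, per the submitters' processing notes. Which annotation release and counting settings applied is not given in the sources used here. FPKM values per gene, with a confidence interval and a status, were deposited by the authors, per the file headers. Rows of 92 spike-ins and 4 genes with a failed estimate were left out, and repeated rows of 48 gene IDs were summed. Fragments behind a value were estimated by taking the half-width of the interval as 2 standard errors of a count. This treats the whole width as counting error, so any other uncertainty in the interval lowers the estimate.

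Values were taken as log2(FPKM + 1), which understates changes of low genes. Genes with a mean of at least 1 FPKM were kept, 354 small RNA genes were left out so that 14663 genes entered the tests. A model with 1 mean per group was fitted in limma 3.58.1 (R 4.3.3) over the 6 libraries, with a mean-variance trend in eBayes and 3 residual degrees of freedom. Tests were two-sided, with Benjamini-Hochberg adjustment over all tested genes at 0.05. SE and 95% intervals are from this fit, which was tested on simulated data. With 2 libraries a side the smallest exact permutation p is 0.333, so that test was not used. There were 16 alternative settings. The receptors and gene lists were chosen with earlier results of these data known. The text names all 10 receptors, the 3 genes of each pathway list with the largest difference between the siRNA groups, and the 3 named genes most correlated with each receptor. One gene that this rule names is not reported here.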

Additional observations from a re-analysis of the deposited data

How the results depend on the processing

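No receptor was called under any of the 16 settings in any comparison; the smallest limma adjusted p of a receptor was 0.659. Over all genes the number called ranged from 0 to 29 against scrambled siRNA, from 34 to 199 against control and from 0 to 7 in scrambled siRNA against control, beside 18, 181 and 0 as reported. Of 462 receptor values under an alternative 424 kept their sign and 38 did not. Of the changes, 26 came when a library was left out and 12 under another scaling, and the cause was not tested. Changing the filter, the groups fitted, the replicate block or the eBayes trend cannot alter a difference. Nor can leaving out a library of a group outside the comparison. The signs under those settings were fixed in advance, so the count of 424 overstates how stable the signs were. The replicate numbers are not stated to pair the libraries. Every group holds both numbers, so a block by number cannot change a difference or its sign, only its SE and p-value. With the block no receptor was called (all genes: 13, 188 and 0 calls). Differences of replicate 2 minus replicate 1 correlated across genes at 0.39 (control and scrambled siRNA), 0.18 (control and Baf53b siRNA) and 0.36 (both siRNA groups).

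In Baf53b siRNA against control, Htr2a was -0.023 without mitochondrial genes and -0.068 after quantile normalization, where Crhr1 was -0.0056. In scrambled siRNA against control, Adra1a, Adra2a, Chrm1 and Chrm3 were -0.0079, -0.014, -0.0077 and -0.017 without mitochondrial genes. Quantile normalization gave -0.032 for Adra1a, -0.022 for Adra2a and -0.028 for Chrm3, and median ratio scaling -0.0040 for Adra2a and -0.0049 for Chrm3. The number of receptors below 0 in that comparison was 4 with median ratio scaling, 6 without mitochondrial genes, 5 with quantile normalization and 2 to 6 with a library left out. At a mean of at least 5 FPKM only Chrm1, Htr2c, Cnr1 and Adrb1 were tested.

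With each library left out in turn, values against scrambled siRNA ran from -0.33 to 0.069 (Chrm1), -0.44 to 0.062 (Chrm3) and -0.24 to 0.0044 (Cnr1). Baf53b siRNA against control ran from -0.052 to 0.14 (Htr2a), -0.086 to 0.065 (Htr2c), -0.19 to 0.070 (Adra2a), -0.17 to 0.090 (Adrb1), -0.23 to 0.076 (Chrm1) and -0.21 to 0.42 (Crhr1). Scrambled siRNA against control ran from -0.0092 to 0.26 (Htr2c), -0.025 to 0.094 (Adra1a), -0.093 to 0.16 (Adra2a), -0.063 to 0.19 (Adrb1), -0.14 to 0.25 (Chrm1), -0.22 to 0.29 (Chrm3) and -0.14 to 0.11 (Cnr1). A group left with 1 library is assumed to vary like the others. Htr1a, Adra1a, Chrm3 and Crhr1 had the fewest estimated fragments, so the estimated counting error was largest for them.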
